A study of Mus musculus with 18 samples.

Results

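Chemokines are small secreted proteins that guide the movement of leukocytes, and chemokine receptors are the G protein-coupled receptors that read them. The genes described here were the mouse chemokine ligands and receptors, taken as every gene symbol of the form Ccl or Cxcl followed by a number, every Ccr or Cxcr followed by a number, and Cx3cl1, Cx3cr1, Xcl1 and Xcr1. This gave 57 members among the 45151 symbols that all files shared, of which 38 were ligands and 19 were receptors. RNA was measured by RNA-seq in 18 samples of wild-type male C57BL/6J mice that were 16 weeks old and were kept on regular chow, with 6 samples per depot. The inguinal (iWAT) and epididymal (eWAT) samples were mature adipocytes, obtained as the floating layer after digestion of the white fat with collagenase, whereas the brown fat (BAT) samples were whole tissue that had been snap frozen. No sample carried a transgene or received a treatment, so the comparisons were those between depots. Depot and preparation cannot be told apart in the contrasts with BAT, because no white depot was sampled as whole tissue and no brown adipocytes were isolated.

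Ligands are named by the spacing of their first cysteines (CC, CXC, CX3C and XC), and receptors by the class of ligand they bind. Inflammatory ligands are made on demand by many cell types, adipocytes included, after signalling through NF-kappaB or interferons, while homeostatic ligands are made steadily and position cells in resting tissue. The receptors are carried mostly by leukocytes and signal through Gi proteins, and the atypical receptor Cxcr7 (now named Ackr3) binds and removes its ligand Cxcl12 without that signal. In adipose tissue Ccl2 and its receptor Ccr2 are best known for drawing monocytes into expanding fat.

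The libraries held 22929576 to 34512470 reads behind the normalized values, and the depots overlapped in depth. Levels are given as RPKM, the reads of a row scaled by its length and by the depth of the library, as lowest, median and highest of the 6 samples of a depot. For iWAT and BAT a gene was a single merged row, and for eWAT it was the transcript row with the most reads. The merged row was at most 1.1 times as long as the eWAT transcript for 42 members and over 1.5 times as long for 9 members, and where this matters it is stated beside the value. The defining markers followed the labels. Ucp1, the uncoupling protein of brown adipocytes, lay between 969 and 1509 RPKM in BAT and at most at 5.77 RPKM in the white samples. The 8 adipocyte markers summed to 9235 to 12510 RPKM in iWAT, 4125 to 10530 RPKM in eWAT and 1374 to 2064 RPKM in BAT. A single eWAT sample, number 15 in its title, stood apart. Its 11 macrophage markers summed to 3139 RPKM, against 205 to 713 RPKM in the other eWAT samples, and its adipocyte markers summed to 4125 RPKM, against 7966 RPKM or more in the others. Epididymis markers reached 78.7 and 74.8 RPKM in the eWAT samples 14 and 15, and muscle markers reached 1340 RPKM in BAT sample 12.

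In the white depots the chemokine RNA was mostly ligand RNA. The RPKM summed over the 38 ligands had a median of 953 in iWAT (477 to 1768), 769 in eWAT (450.3 to 1349) and 41.3 in BAT (31.5 to 54.1). All white samples lay above all BAT samples in this sum. The 19 receptors summed to a median of 10.2 RPKM in iWAT, 28.9 RPKM in eWAT and 23.4 RPKM in BAT, and their ranges overlapped between BAT and eWAT but not between BAT (16.8 to 27.0) and iWAT (5.49 to 15.6). Cxcl1 alone made up 41.9% of the ligand sum in iWAT and 34.8% in eWAT, while the atypical receptor Cxcr7 made up 78.5% of the receptor sum in BAT. A mean of at least 1 RPKM in some depot was reached by 28 members, 21 ligands and 7 receptors. In iWAT 18 members reached it, in eWAT 26 and in BAT 8. The eWAT values were computed on transcript rows, some of them shorter than the merged rows. The sums and these counts are therefore not fully alike between eWAT and the other depots. Ccr9, for example, had a mean of 1.86 RPKM in eWAT and 0.280 RPKM in BAT, from medians of 126 and 101.5 reads. The last member inside this limit was Cxcl13 with 1.03 RPKM, and the first outside it was Ccl21b with 0.891 RPKM. In bulk samples of this kind, fewer cells of a type and less RNA per cell cannot be told apart.

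**Figure D1:**
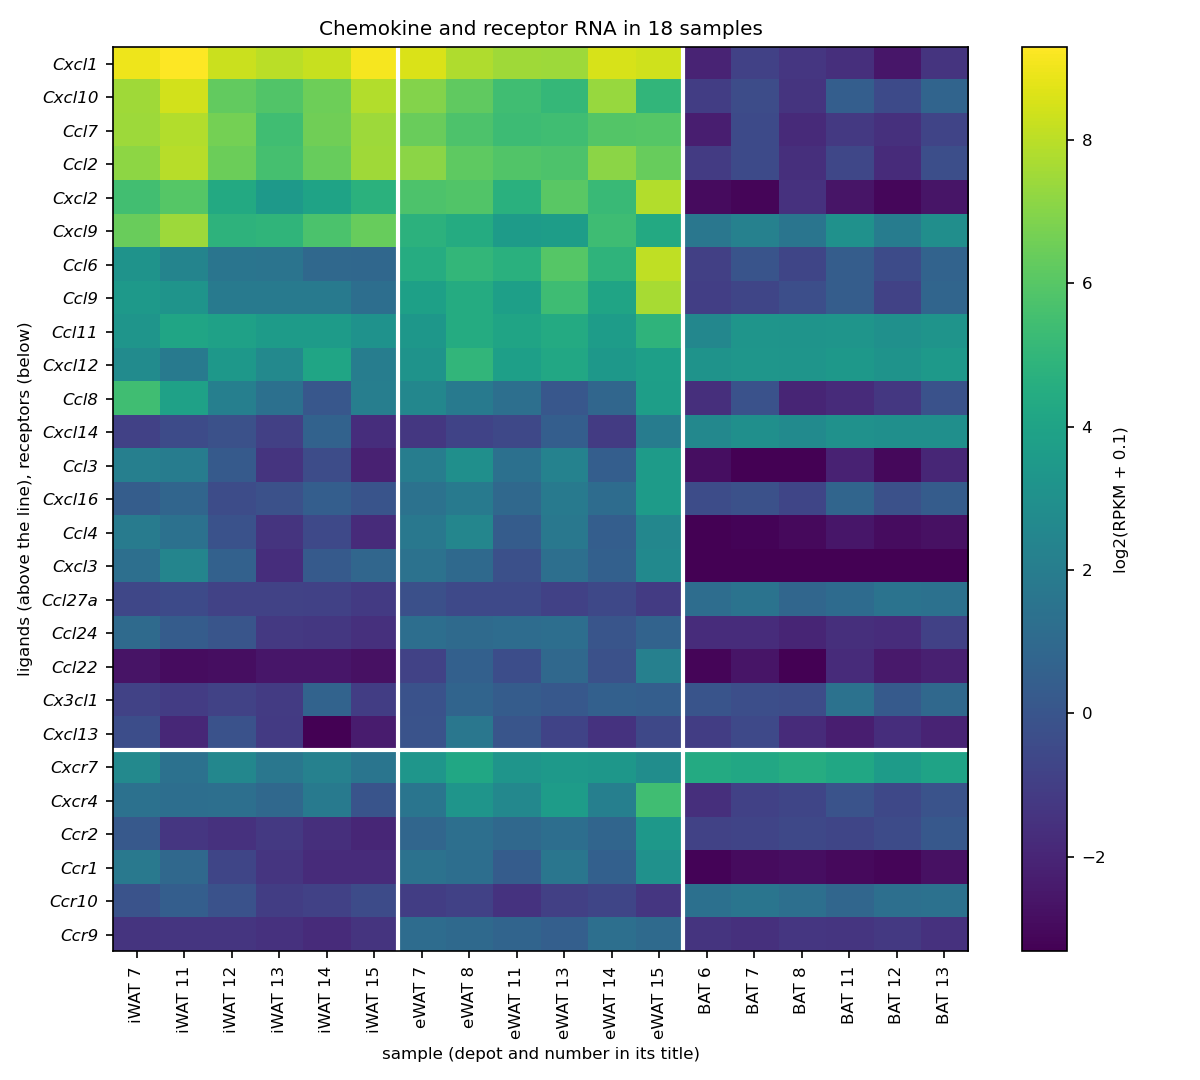
Heat map of 27 of the 28 members with a mean of at least 1 RPKM in a depot, with genes in rows (ligands above the white line, receptors below) and the 18 samples in columns, coloured by log2(RPKM + 0.1). The inflammatory ligands at the top are bright in the 12 white samples and dark in the 6 BAT samples, the BAT columns are brighter than most white columns for Cxcl14, Ccl27a, Cxcr7 and Ccr10, and eWAT sample 15 stands out for Ccl6, Ccl9, Cxcr4 and Ccr2.

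Differences between depots were tested on the deposited read counts with edgeR's quasi-likelihood test, with Benjamini-Hochberg adjustment over all features tested and an adjusted p under 0.05 as the threshold. Of the 30 members with enough reads to be tested between iWAT and BAT, 14 were higher and 9 were lower in iWAT. This is 76.7% of those tested, and 67.6% of all rows tested differed between these depots (34% higher and 33.6% lower in iWAT). Between eWAT and BAT 38 members were tested, of which 22 were higher and 5 were lower in eWAT, or 71.05%, beside 70.3% of all symbols tested (35.6% higher and 34.7% lower). The share of members that differed was thus near the background in both contrasts with BAT. Between eWAT and iWAT 11 members were higher and 7 were lower in eWAT of 38 tested, or 47.4%, beside 25.6% of all symbols (12.3% higher and 13.4% lower). The median log2 difference of the tested members was 0.87 for iWAT over BAT, where that of all rows was 0.010, and 1.85 for eWAT over BAT, where that of all symbols was 0.035 (1.78 with the genes without BAT reads set at their bound). Ligands had a median of 1.92 in iWAT over BAT, and 12 of the 21 tested were higher. Some of the higher ligands, such as Cxcl3 and Ccl4, had under 10 reads in every BAT library and entered the test only through iWAT. Other members with few reads in a depot, among them Cxcl2, Ccl7, Ccl8 and Cx3cr1, entered mainly through the depot where they were high. Their calls are not independent of that filter. Receptors had a median of -0.37, and 2 of the 9 tested were higher and 5 lower. The counts were not scaled by row length. When row length was added as an offset, the split in eWAT over BAT was 24 members higher and 4 lower (all symbols 9789 higher and 4345 lower), and in eWAT over iWAT it was 21 higher and 4 lower (all symbols 8643 higher and 1022 lower).

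**Figure D2:**
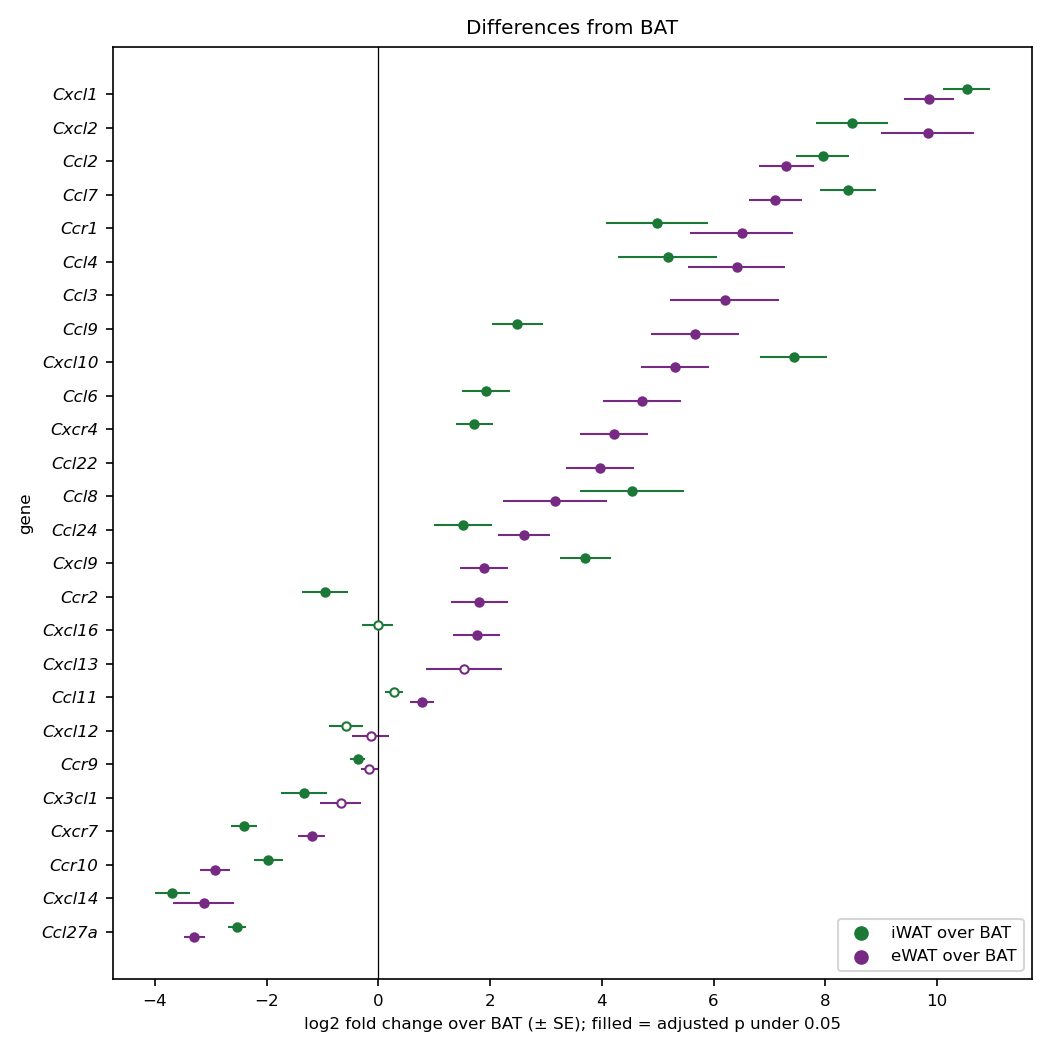
Log2 fold change (horizontal axis, with SE bars) of 26 members with a mean of at least 1 RPKM in iWAT over BAT (green) and eWAT over BAT (purple), filled where the adjusted p was under 0.05, ordered by the eWAT value. Cxcl1 lies farthest to the right for both depots at 10.53 and 9.85, and Ccl27a and Cxcl14 lie farthest to the left. Cxcl3 had no BAT read and is not drawn.

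The ligands that attract neutrophils through Cxcr2 showed the widest gap between the white depots and BAT. Cxcl1, also known as KC, was the most abundant chemokine RNA in both white depots. Its level was 256, 406 and 630.4 RPKM (lowest, median and highest) in iWAT, 174, 278 and 390.0 RPKM in eWAT and 0.0685, 0.248 and 0.435 RPKM in BAT. The BAT values rest on 4 to 28 reads per library, and the white values on 9823 reads or more. Cxcl1 was 1479-fold higher in iWAT than in BAT (log2 difference 10.53, SE 0.42, adjusted p = 9.25e-11, edgeR) and 925-fold higher in eWAT (9.85, SE 0.45, adjusted p = 1.14e-12, edgeR). Cxcl2, or MIP-2, was read at 10.9, 23.2 and 61.8 RPKM in iWAT, 26.2, 56.1 and 233 RPKM in eWAT and 0.0141, 0.0457 and 0.254 RPKM in BAT. No BAT sample came near the white samples. The log2 difference of Cxcl2 was 8.49 in iWAT over BAT (SE 0.64, adjusted p = 4.48e-08, edgeR) and 9.83 in eWAT over BAT (SE 0.83, adjusted p = 5.53e-09, edgeR). Without BAT sample 8, the highest of its group, these were 9.38 and 10.74, and without eWAT sample 15 the eWAT value was 9.11. Cxcl3 had no read in any BAT library. It was read at 0.213, 1.54 and 5.22 RPKM in iWAT and 0.741, 2.12 and 6.25 RPKM in eWAT, which is at least 71.6-fold and at least 91.1-fold higher than the BAT floor of 3 reads per library. Cxcl5 was likewise without BAT reads and low in the white depots, with medians of 0.426 RPKM in iWAT and 0.0929 RPKM in eWAT. It had too few reads for the test of iWAT against BAT, and the floor gives at least 10.1-fold in iWAT and at least 2.36-fold in eWAT. Their receptors had few reads. Cxcr2 was represented by 6, 9 and 9 reads over the 6 libraries of iWAT, eWAT and BAT and Cxcr1 by 1, 1 and 5 reads. Of 7 neutrophil markers 2 had enough reads to be tested. S100a8 was higher than BAT in iWAT (log2 difference 2.80, SE 0.42, adjusted p = 3.81e-05, edgeR) and in eWAT (3.63, SE 0.44, adjusted p = 6.8e-07, edgeR), with medians of 3.71, 5.31 and 0.462 RPKM in iWAT, eWAT and BAT. Csf3r did not pass (-0.44 and 1.17, adjusted p = 0.495 and 0.0872, edgeR), S100a9 had medians of 0.0302, 0.174 and 0.291 RPKM, and Ly6g had no read in either white depot. Their part in the levels of these ligands was not tested.

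**Figure D3:**
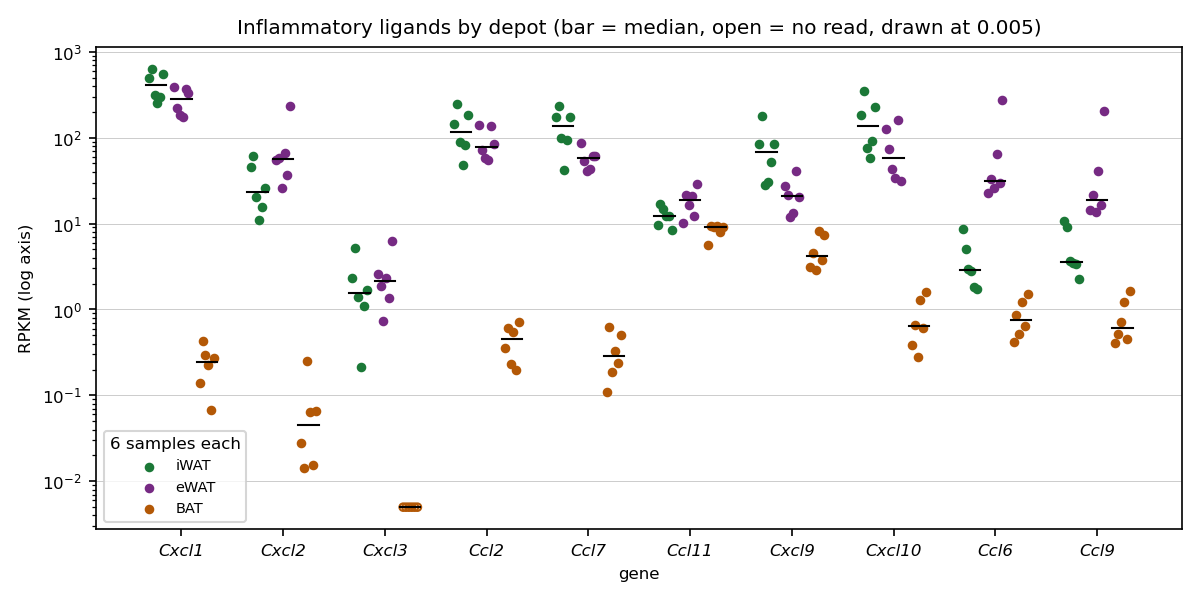
RPKM (log axis) of 10 inflammatory ligands in the 6 samples of each depot (green iWAT, purple eWAT, brown BAT), with the median as a bar and samples without reads as open circles at 0.005. Cxcl1, Cxcl2, Cxcl3, Ccl2, Ccl7 and Cxcl10 form separate clouds for the white depots and BAT, whereas Ccl11 lies at about the same height in all depots and Ccl6 and Ccl9 lie highest in eWAT.

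Cxcl1, Cxcl2 and Cxcl3 are neighbours on chromosome 5, where the files place Cxcl3 at chr5:91215127-91218626, Cxcl1 at chr5:91320267-91322147 and Cxcl2 at chr5:91332897-91334964 (mm9, plus strand). The sequence before their start sites is shown because these genes were high together, with that of Cxcl10 for the interferon group and those of Cxcl14 and Cxcr7 for the members higher in BAT. Each run is the 160 bases before the start in RefSeq (build GRCm38.p6, so the coordinates differ from those of the files), 5′ to 3′ on the gene's strand, and the capitals mark matches to the NF-kappaB core motif, which is GGG, any 3 bases and then TTCC, on either strand.
Cxcl1, chr5:90891085-90891244, plus strand: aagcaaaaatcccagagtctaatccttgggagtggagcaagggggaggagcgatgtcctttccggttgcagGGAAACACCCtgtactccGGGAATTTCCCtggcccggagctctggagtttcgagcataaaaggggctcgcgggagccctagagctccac
Cxcl2, chr5:90903739-90903898, plus strand: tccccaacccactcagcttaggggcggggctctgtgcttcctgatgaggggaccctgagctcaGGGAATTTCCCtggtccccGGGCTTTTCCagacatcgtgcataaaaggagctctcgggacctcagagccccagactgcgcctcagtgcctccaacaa
Cxcl3, chr5:90785941-90786100, plus strand: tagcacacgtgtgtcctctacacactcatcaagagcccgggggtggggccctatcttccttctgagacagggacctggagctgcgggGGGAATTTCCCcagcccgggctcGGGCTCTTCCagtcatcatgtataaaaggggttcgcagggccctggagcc
Cxcl10, chr5:92348890-92349049, minus strand: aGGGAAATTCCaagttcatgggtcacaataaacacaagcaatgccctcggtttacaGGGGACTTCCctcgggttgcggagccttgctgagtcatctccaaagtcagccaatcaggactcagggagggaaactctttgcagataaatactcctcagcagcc
Cxcl14, chr13:56296552-56296711, minus strand: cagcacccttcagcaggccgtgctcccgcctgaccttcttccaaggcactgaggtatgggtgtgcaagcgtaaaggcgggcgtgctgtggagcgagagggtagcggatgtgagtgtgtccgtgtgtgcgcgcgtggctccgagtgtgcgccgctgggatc
Cxcr7, chr1:90203820-90203979, plus strand: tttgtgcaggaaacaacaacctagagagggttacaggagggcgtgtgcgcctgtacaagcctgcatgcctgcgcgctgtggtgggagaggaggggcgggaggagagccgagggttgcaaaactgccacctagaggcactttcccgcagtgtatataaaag

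Cxcl1, Cxcl2 and Cxcl3 each held the same 11 letters GGGAATTTCCC, which match on both strands and so count as a pair of overlapping matches, and each held another match nearby. In Cxcl1 the shared stretch began 71 bases before the start, in Cxcl2 97 and in Cxcl3 73. Cxcl10 held matches that began 159 and 104 bases before its start. RefSeq promoters were matched for 41 of the 57 members, as 48 promoters. Within the 250 bases before the start, 9 of these 48 (18.8%) held the NF-kappaB motif. Over the same length 4.65% of all 32851 promoters held it. The other motifs searched were also more frequent in the member promoters. The TATA box was in 27.1% of them and in 12.4% of all promoters, and AP-1 in 12.5% and 6.75%. For the interferon element the shares were 6.25% and 2.98%. The NF-kappaB motif was found in 5 of the 10 matched members that were higher in iWAT than in BAT. It was found in none of the 8 that were lower, and in 4 of the other 23. The 5 included the neighbours Cxcl1, Cxcl2 and Cxcl3 with their shared stretch, so they cannot be counted as independent genes. Ccl2, Ccl4, Ccl7 and Ccl24, also higher in iWAT than in BAT, had no matched promoter and were not searched. The TATA box was found in 5 of the 10, 3 of the 8 and 5 of the other 23. For AP-1 these were 2, 1 and 3, and for the interferon element 1, 1 and 1. A match is a description of letters, and its use in these cells was not tested.

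The monocyte-attracting ligands Ccl2 (MCP-1) and Ccl7 (MCP-3), which both act on Ccr2, followed Cxcl1 in abundance together with Cxcl10. Ccl2 was read at 48.1, 116 and 248.9 RPKM in iWAT, 55.0, 77.7 and 139.9 RPKM in eWAT and 0.198, 0.452 and 0.711 RPKM in BAT. Ccl7 was read at 42.4, 137 and 234 RPKM in iWAT, 40.4, 57.4 and 86.3 RPKM in eWAT and 0.108, 0.284 and 0.620 RPKM in BAT. In both genes the lowest white sample was over the highest BAT sample. The log2 differences over BAT were 7.95 (SE 0.48, adjusted p = 4.65e-09, edgeR) for Ccl2 and 8.41 (SE 0.50, adjusted p = 4.18e-09, edgeR) for Ccl7 in iWAT, and 7.30 (SE 0.49) and 7.11 (SE 0.47) in eWAT. Ccl11, or eotaxin, lies next to them on the same strand of chromosome 11 (chr11:81871325-81876457 in mm9, with Ccl2 and Ccl7 at chr11:81849073-81850955 and chr11:81859214-81861027) and attracts eosinophils. Its levels were much closer between the depots, at 8.50, 12.2 and 16.9 RPKM in iWAT, 10.0, 18.7 and 29.2 RPKM in eWAT and 5.68, 9.20 and 9.47 RPKM in BAT. Ccl11 did not pass the test in iWAT over BAT (log2 difference 0.29, SE 0.16, adjusted p = 0.135, edgeR) and was 0.78 higher in eWAT (SE 0.22, adjusted p = 0.0042, edgeR).

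The other inflammatory CC ligands were lower in level but mostly followed the same direction. Ccl8 (MCP-2) was read at 0.986, 4.18 and 43.6 RPKM in iWAT, 0.973, 2.91 and 13.5 RPKM in eWAT and 0.147, 0.271 and 0.800 RPKM in BAT. In iWAT sample 7 was at 43.6 RPKM and the next at 14.7 RPKM. Its log2 difference over BAT was 4.54 in iWAT (SE 0.93, adjusted p = 0.000639, edgeR) and 3.38 without sample 7, and it was 3.16 in eWAT (SE 0.93, adjusted p = 0.0056, edgeR) and 2.44 without sample 15. Ccl3 and Ccl4 (MIP-1 alpha and beta), which attract monocytes and T cells, were near 0 in BAT, with medians of 0.0293 and 0.0300 RPKM. Ccl4 had medians of 0.695 RPKM in iWAT (0.1895 to 3.725) and 3.24 RPKM in eWAT (1.185 to 5.62), and was higher than BAT in both (log2 differences 5.18, SE 0.89, and 6.41, SE 0.87). The BAT libraries held 0 to 6 Ccl4 reads each, so Ccl4 entered the iWAT test only through the iWAT libraries (14 to 244 reads). Without iWAT sample 7 the iWAT value of Ccl4 was 4.56. Ccl3 had too few reads to be tested between iWAT and BAT. Its medians were 0.875 RPKM in iWAT and 4.38 RPKM in eWAT, and it was higher in eWAT than in BAT (6.20, SE 0.98, adjusted p = 1.7e-05, edgeR). The BAT libraries held 0 to 7 Ccl3 reads each, so Ccl3 entered that test only through the white libraries. Ccl24, or eotaxin-2, had medians of 0.619, 2.04 and 0.203 RPKM in iWAT, eWAT and BAT. It was 1.52 higher in iWAT than in BAT (SE 0.51, adjusted p = 0.0178, edgeR), a call lost without iWAT sample 7 (1.06, adjusted p = 0.0502, edgeR), and 2.61 higher in eWAT (SE 0.46). The iWAT libraries held 8 to 58 Ccl24 reads each and the BAT libraries 5 to 17, so Ccl24 entered the iWAT test mostly through iWAT. Of the 12 ligands of this role, 9 were tested in iWAT over BAT, where 7 were higher, none was lower and 2 did not pass (Ccl11 and Ccl5). Of the 10 tested in eWAT over BAT, 9 were higher. These are 77.8% and 90% called. Of all rows 67.6% were called in iWAT over BAT (34% higher), and of all symbols 70.3% in eWAT over BAT (35.6% higher).

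The ligands of Cxcr3 are induced by interferon. Cxcl10 (IP-10) was read at 58.1, 137 and 348 RPKM in iWAT, 31.3, 58.5 and 162 RPKM in eWAT and 0.277, 0.636 and 1.605 RPKM in BAT. Cxcl9 (MIG) was read at 28.45, 67.7 and 176 RPKM in iWAT, 11.97, 20.9 and 41.0 RPKM in eWAT and 2.85, 4.16 and 8.17 RPKM in BAT. Both were above all BAT samples in all white samples, but Cxcl9 had a higher level in BAT than Cxcl10. The log2 difference of iWAT over BAT was 7.44 for Cxcl10 (SE 0.60, adjusted p = 7.87e-08, edgeR) and 3.71 for Cxcl9 (SE 0.46, adjusted p = 7.03e-06, edgeR). In eWAT over BAT it was 5.31 (SE 0.61) and 1.89 (SE 0.43). Cxcl11, the other ligand of this role, had medians of 0.509, 0.271 and 0.179 RPKM in iWAT, eWAT and BAT and did not pass over BAT in either depot as fitted (log2 difference 1.156, adjusted p = 0.0766 in iWAT, and adjusted p = 0.655 in eWAT, edgeR). In iWAT over BAT it was called with DESeq2 (1.15, adjusted p = 0.0473) and without BAT sample 8 or iWAT sample 13 or 14. Of the exon bases of Cxcl11, 41.7% overlapped the gene Gm2673 on the opposite strand, and 8.75% of those of Cxcl10 overlapped Art3. Whether the counting used strand is not given in the sources used here. Cxcr3, their receptor, was represented by 26, 29 and 45 reads in the iWAT, eWAT and BAT libraries.

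Among the white depots both ligands were higher in iWAT. Cxcl10 was 4.24-fold lower in eWAT than in iWAT (log2 difference -2.08, SE 0.51, adjusted p = 0.00576, edgeR), and Cxcl9 was 3.41-fold lower (-1.77, SE 0.43, adjusted p = 0.00517, edgeR). The Cxcl9 row was the same in all files. The merged Cxcl10 row was 2.00 times as long as the eWAT transcript, and with row length as an offset Cxcl10 was no longer past the threshold (-1.09, adjusted p = 0.075, edgeR). Ccl7 was 2.39-fold lower in eWAT than in iWAT (-1.26, SE 0.32, adjusted p = 0.00814, edgeR) on a row shared by all files. Cxcl1 and Ccl2 did not pass (-0.63, SE 0.29, adjusted p = 0.125, and -0.60, SE 0.35, adjusted p = 0.223, edgeR), nor did Cxcl2, which had the opposite sign (1.39, SE 0.52, adjusted p = 0.0545, edgeR). Cxcl2 was called with row length as an offset (1.396, adjusted p = 0.0294, edgeR) and with limma on log2(RPKM + 0.1) (1.26, adjusted p = 0.0304), and Cxcl1 with limma on log2(RPKM + 1) (-0.61, adjusted p = 0.0402). Cxcl5 was lower in eWAT (-2.06, SE 0.58, adjusted p = 0.0188, edgeR).

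Another set of members was highest in eWAT, where sample 15 was highest for them and for the macrophage markers. Ccl6, Ccl9, Ccr1, Ccr2, Cxcr4, Cxcl16 and Ccl22 had a Pearson correlation with these markers of 0.90 to 0.996 over the 6 eWAT samples. It ran from -0.34 (Ccl22) to 0.99 (Ccr1) in iWAT and from 0.45 (Ccr1) to 0.97 (Ccl6) in BAT. Outside this set, Cxcl2 (0.92) and Cxcl14 (0.98) were as high in eWAT. The set was picked for its high values in sample 15, so that sample alone makes a high correlation likely. In eWAT the same members correlated at 0.77 (Ccl22) to 0.85 (Ccr1) with the stromal progenitor markers. With the adipocyte markers they correlated at -0.92 (Ccr2) to -0.72 (Ccl22). The correlation is thus not particular to the macrophage markers. Ccl6 (C10) and Ccl9 (MIP-1 gamma), which macrophages make in large amounts, lie side by side on chromosome 11 (chr11:83401384-83406589 and chr11:83386419-83392138, minus strand, mm9). Ccl6 was read at 1.73, 2.87 and 8.73 RPKM in iWAT, 22.6, 31.2 and 275 RPKM in eWAT and 0.417, 0.754 and 1.52 RPKM in BAT. Ccl9 was read at 2.28, 3.56 and 10.7 RPKM in iWAT, 13.7, 19.0 and 202 RPKM in eWAT and 0.409, 0.615 and 1.64 RPKM in BAT. The 3 depots did not overlap in either gene, with eWAT above iWAT and iWAT above BAT. In eWAT over iWAT the log2 difference was 2.84 for Ccl6 (SE 0.63, adjusted p = 0.0029, edgeR) and 3.23 for Ccl9 (SE 0.69, adjusted p = 0.00227, edgeR). Without eWAT sample 15 these were 1.70 and 1.92, both still past the threshold. In eWAT over BAT the values were 4.72 (SE 0.69) for Ccl6 and 5.66 (SE 0.79) for Ccl9, and 3.58 and 4.36 without sample 15. The merged Ccl6 row was 2.71 times as long as the eWAT transcript, and with row length as an offset Ccl6 differed by 4.28 from iWAT and by 6.15 from BAT. In iWAT over BAT they were higher by 1.92 (SE 0.43, adjusted p = 0.00113, edgeR) and 2.48 (SE 0.45, adjusted p = 0.000244, edgeR).

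Ccr2 and Cxcr4, receptors carried by leukocytes, were also highest in eWAT. Ccr2, the receptor of Ccl2 and Ccl7 on monocytes, was read at 0.154, 0.274 and 1.03 RPKM in iWAT, 1.62, 2.05 and 10.5 RPKM in eWAT and 0.454, 0.539 and 1.03 RPKM in BAT. All eWAT samples were above all others. Ccr2 was higher in eWAT than in iWAT by 2.81 on the log2 scale (SE 0.54, adjusted p = 0.000961, edgeR) and than in BAT by 1.80 (SE 0.51, adjusted p = 0.00421, edgeR). Without eWAT sample 15 these were 1.98 and 0.99, and without iWAT sample 7 the first was 3.42. In iWAT over BAT Ccr2 was lower by a margin at the threshold (-0.95, SE 0.40, adjusted p = 0.0491, edgeR), and its call was lost when any of 10 of the 12 samples was left out and with no filter on low counts (-0.89, adjusted p = 0.0605, edgeR). Without iWAT sample 7 it stayed called, at -1.56.

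Ccr1, which binds Ccl6 and Ccl9, had medians of 0.410 RPKM in iWAT (0.189 to 3.28), 2.44 RPKM in eWAT (1.18 to 8.29) and 0.0270 RPKM in BAT (0.0102 to 0.0477), and all white samples were above all BAT samples. The BAT libraries held 1 to 4 Ccr1 reads each, so Ccr1 entered the iWAT test only through the iWAT libraries (14 to 213 reads). Ccr1 was higher than BAT by 4.98 in iWAT (SE 0.91, adjusted p = 0.000237, edgeR) and by 6.50 in eWAT (SE 0.92, adjusted p = 4.87e-06, edgeR). Without iWAT sample 7 the first was 4.18, and without eWAT sample 15 the second was 5.90. Ccr1 did not pass in eWAT over iWAT (1.56, SE 0.64, adjusted p = 0.0834, edgeR). Cxcr4, the signalling receptor of Cxcl12, was read at 0.874, 2.33 and 3.51 RPKM in iWAT, 2.88, 7.58 and 42.9 RPKM in eWAT and 0.224, 0.542 and 0.849 RPKM in BAT. Here too both white depots lay above BAT. It was higher than BAT by 1.72 in iWAT (SE 0.33, adjusted p = 0.000339, edgeR) and by 4.21 in eWAT (SE 0.61, adjusted p = 5.83e-06, edgeR), and higher in eWAT than in iWAT by 2.54 (SE 0.55, adjusted p = 0.00242, edgeR). Without eWAT sample 15 the last values were 3.29 and 1.60.

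Cxcl16 is a membrane-anchored ligand that also acts as a scavenger receptor of macrophages. Its medians were 1.04, 3.05 and 0.765 RPKM in iWAT, eWAT and BAT, with eWAT (1.84 to 11.95) above all other samples. It was higher in eWAT than in iWAT by 1.82 (SE 0.42, adjusted p = 0.00398, edgeR) and than in BAT by 1.76 (SE 0.42, adjusted p = 0.00111, edgeR), and by 1.15 and 1.095 without sample 15. Between iWAT and BAT it differed by -0.01 (SE 0.28, adjusted p = 0.973, edgeR). Of its exon bases 18.3% overlapped Zmynd15 on the opposite strand. Ccl22, the ligand of Ccr4 made by dendritic cells and macrophages, was nearly at 0 outside eWAT, with 20 reads in all iWAT libraries, 34 in all BAT libraries and a median of 1.07 RPKM in eWAT (0.453 to 4.49). It was higher in eWAT by 4.80 over iWAT (SE 0.66) and by 3.97 over BAT (SE 0.62), and by 4.12 and 3.29 without sample 15. Ccl22 entered these tests through its eWAT libraries, which held 34 to 326 reads each. Ccr7, the receptor that leads dendritic cells to lymph nodes, had medians of 0.2145, 0.5197 and 0.0653 RPKM and was higher in eWAT than in BAT (2.05, SE 0.55, adjusted p = 0.00298, edgeR).

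**Figure D4:**
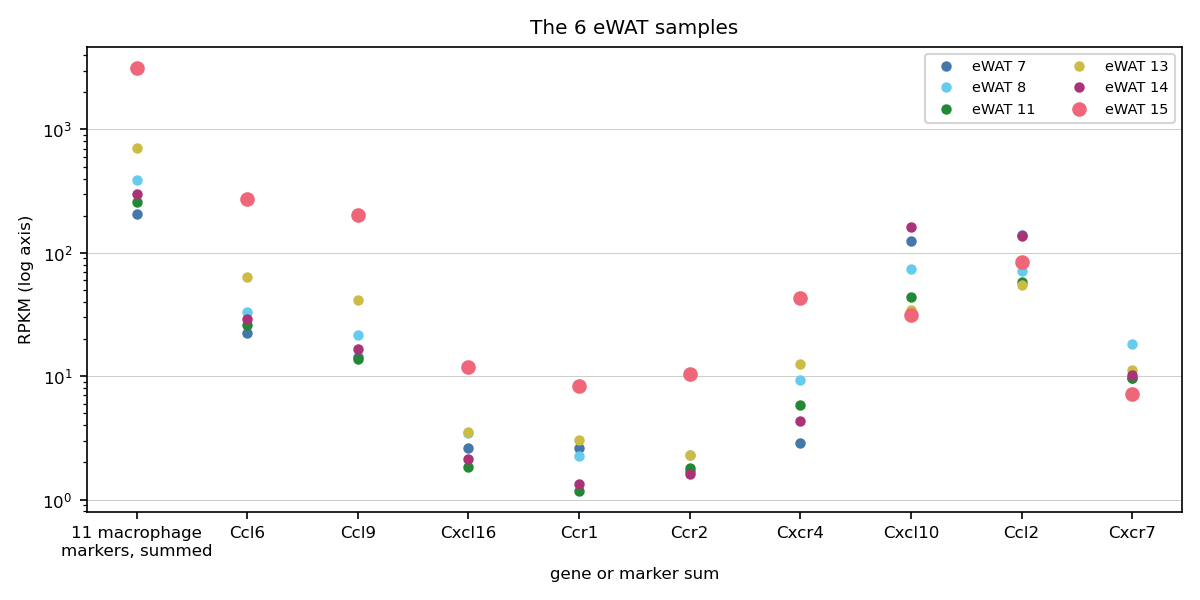
The 6 eWAT samples, each in its own colour, with the sum of the 11 macrophage markers at the left and 9 members to its right (RPKM, log axis). Sample 15 (large points) is highest for the marker sum at 3139 RPKM and for Ccl6, Ccl9, Cxcl16, Ccr1, Ccr2 and Cxcr4, but lowest for Cxcl10 and Cxcr7.

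Of the 26 members with a mean of at least 1 RPKM in eWAT, 15 were highest in sample 15 and 2 were lowest there. Compared with the median of the other 5 samples, sample 15 held 12.2 times as much Ccl9 and 9.37 times as much Ccl6 by RPKM. By the same measure it held 1.163 times as much Ccl2 and 0.426 times as much Cxcl10. The macrophage markers themselves were higher in eWAT than in BAT for all 11 genes (35.6% of all symbols were). They were higher in eWAT than in iWAT for 9 of 11 (12.3% of all symbols were). Between iWAT and BAT 67.6% of all rows were called and 34% were higher in iWAT. Of the 11 markers 4 were higher there and none was lower, or 36.4% called, so near the share of rows higher in iWAT. The summed level of the markers was 41.5 to 241 RPKM in iWAT, 205 to 3139 RPKM in eWAT and 35.8 to 81.0 RPKM in BAT, and no marker was without reads in a depot. Their part in the levels of these members was not tested.

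A further set was higher in BAT. Cxcr7 was the most abundant receptor RNA there, at 11.98, 18.6 and 22.6 RPKM in BAT, 2.48, 3.85 and 6.07 RPKM in iWAT and 7.13, 9.89 and 18.2 RPKM in eWAT. It was 5.30-fold lower in iWAT than in BAT (log2 difference -2.41, SE 0.24, adjusted p = 6.76e-07, edgeR) and lower in eWAT by a smaller margin (-1.19, SE 0.24, adjusted p = 0.000221, edgeR). All eWAT samples were above all iWAT samples (1.27, SE 0.24, adjusted p = 0.000975, edgeR). Its ligand Cxcl12 (SDF-1), which holds stem cells and leukocytes in place, had medians of 6.32 RPKM in iWAT (3.46 to 16.7), 14 RPKM in eWAT (8.87 to 31.6) and 9.73 RPKM in BAT (8.79 to 11.4). These ranges overlapped, and no contrast of Cxcl12 passed (-0.58, SE 0.31, adjusted p = 0.113 for iWAT over BAT, edgeR). It was called lower in iWAT than in BAT without iWAT sample 14 (-0.94, adjusted p = 0.00214, edgeR). The merged Cxcl12 row was 1.44 times as long as the eWAT transcript, and with row length as an offset Cxcl12 was called higher in eWAT than in iWAT (1.01, adjusted p = 0.0157, edgeR). Cxcr7 and Cxcl12 are also made by endothelial and stromal cells. The 8 endothelial markers summed to 57.2 to 320.5 RPKM in iWAT, with the highest in sample 14, to 147 to 339 RPKM in eWAT and to 55.9 to 129.8 RPKM in BAT. The 7 stromal progenitor markers summed to 96.5 to 173 RPKM, 112 to 221 RPKM and 52.6 to 82.4 RPKM. Gene by gene, 1 of the 8 endothelial markers was higher and 4 were lower in iWAT than in BAT (median log2 difference -0.73). Of the 7 stromal progenitor markers 2 were higher and 3 lower (median 0.195). These are 62.5% and 71.4% called, beside 67.6% of all rows. In eWAT over BAT (70.3% of all symbols called) 1 endothelial marker was higher and 1 lower, and 3 stromal progenitor markers were higher and 2 lower. Their part in the levels of both genes was not tested.

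Cxcl14 (BRAK), a homeostatic ligand that brown adipocytes are known to release, was read at 5.91, 7.67 and 8.30 RPKM in BAT, 0.2098, 0.543 and 1.49 RPKM in iWAT and 0.319, 0.518 and 3.85 RPKM in eWAT. BAT was above all white samples. It was 12.9-fold lower in iWAT (-3.69, SE 0.32, adjusted p = 1.52e-07, edgeR) and 8.73-fold lower in eWAT (-3.13, SE 0.54, adjusted p = 4.84e-05, edgeR), with -4.09 without eWAT sample 15. Ccl27a and its receptor Ccr10, best known from skin, were both highest in BAT. Ccl27a was read at 1.72, 2.35 and 2.68 RPKM in BAT, 0.347, 0.459 and 0.624 RPKM in iWAT and 0.352, 0.576 and 0.743 RPKM in eWAT. Ccr10 was read at 1.71, 2.37 and 2.86 RPKM in BAT, 0.383, 0.721 and 1.27 RPKM in iWAT and 0.2601, 0.408 and 0.523 RPKM in eWAT. In neither gene did BAT overlap a white depot. The log2 differences over BAT were -2.53 (SE 0.16, adjusted p = 5.86e-09, edgeR) for Ccl27a and -1.97 (SE 0.25, adjusted p = 1.01e-05, edgeR) for Ccr10 in iWAT, and -3.30 (SE 0.19) and -2.93 (SE 0.26) in eWAT. Ccl27a has near-identical copies, among them Ccl27b, which had no reads, so its reads may have been split or shared. Its merged row was 1.87 times as long as the eWAT transcript, and with row length as an offset the eWAT value was -2.40. In eWAT over iWAT Ccr10 was lower (-0.91, SE 0.26, adjusted p = 0.0161, edgeR), but not with the eWAT transcript of the highest RPKM (-0.47, adjusted p = 0.127, edgeR).

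**Figure D5:**
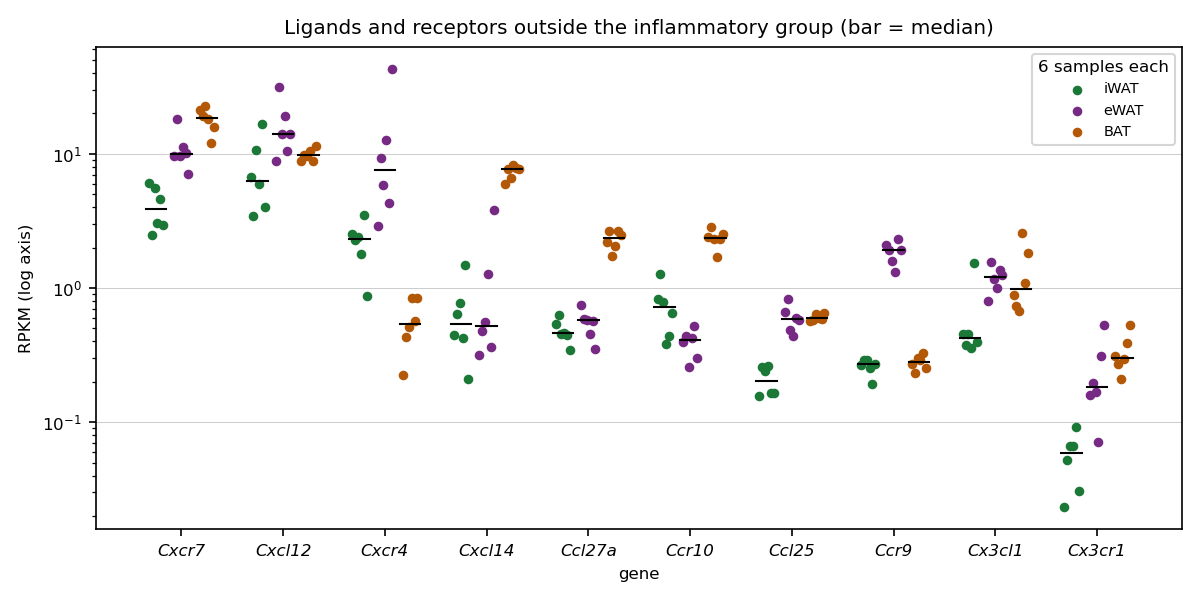
RPKM (log axis) of 10 ligands and receptors outside the inflammatory group in the 6 samples of each depot, with the median as a bar. Leaving Ccr9 and Ccl25 aside, the BAT medians are highest for Cxcr7, Cxcl14, Ccl27a, Ccr10 and Cx3cr1, and Cxcl12 overlaps between depots. The eWAT points of Ccr9 and Ccl25 were computed on shorter rows than those of the other depots.

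The fractalkine pair was low in all depots. Cx3cl1 had medians of 0.424, 1.21 and 0.983 RPKM in iWAT, eWAT and BAT, and was lower in iWAT than in BAT (-1.33, SE 0.42, adjusted p = 0.0118, edgeR). Its receptor Cx3cr1, carried by resident macrophages and monocytes, had medians of 0.0592, 0.182 and 0.304 RPKM and was lower in iWAT than in BAT (-2.80, SE 0.31, adjusted p = 1.95e-06, edgeR) and higher in eWAT than in iWAT (2.06, SE 0.43, adjusted p = 0.00201, edgeR). The iWAT libraries held 2 to 11 Cx3cr1 reads each and the BAT libraries 21 to 59, so Cx3cr1 entered the iWAT test through BAT. In eWAT against BAT it did not pass (-0.80, SE 0.38, adjusted p = 0.0666, edgeR), but did without eWAT sample 15 (-1.22, adjusted p = 0.00317, edgeR). Ccl25 and Ccr9, a ligand and receptor of thymus and gut, had the rows that differed most between the kinds of file. The merged rows were 7.02 and 5.94 times as long as the eWAT transcripts. Between iWAT and BAT, which share rows, Ccl25 was lower in iWAT (-1.80, SE 0.15, adjusted p = 1.16e-07, edgeR), with medians of 0.204 and 0.593 RPKM. Ccr9 was lower by -0.37 (SE 0.13, adjusted p = 0.0246, edgeR) with medians of 0.271 and 0.282 RPKM, a call lost without any 1 of iWAT sample 14, BAT sample 8 or BAT sample 12 (adjusted p between 0.0509 and 0.0588, edgeR) and with no filter on low counts (-0.31, adjusted p = 0.1, edgeR). For eWAT the direction of Ccl25 and Ccr9 depended on whether counts were scaled by row length, so no order is given. Cxcl13, the B cell attractant, was low, with medians of 0.257, 0.696 and 0.204 RPKM in iWAT, eWAT and BAT. It did not pass in eWAT over BAT (1.54, SE 0.69, adjusted p = 0.0534, edgeR), where 3.16 RPKM in eWAT sample 8 was the highest value and the log2 difference without that sample was 0.81. It passed with DESeq2 (1.54, adjusted p = 0.0388) and with limma on log2(RPKM + 0.1) (1.33, adjusted p = 0.0288).

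The other 29 members stayed under a mean of 1 RPKM in every depot. Ccl26, Ccl21a and Ccl27b had no read in any sample, and rows of the Ccl21, Ccl19 and Ccl27 copies are uncertain because reads can match several of them. Ccl21b and Ccl21c, which lie at the same place in the files and so count the same reads, were higher in eWAT than in iWAT by 3.77 (SE 0.59, adjusted p = 0.000179, edgeR), from 140 reads against 8. BAT held 138 of these reads. The lymphocyte and granulocyte receptors Ccr3, Ccr4, Ccr6, Ccr8, Cxcr1, Cxcr2, Cxcr3 and Cxcr6 and the ligands Ccl1, Ccl12, Ccl17, Ccl19, Ccl20, Cxcl15, Cxcl17 and Xcl1 had too few reads for any test. The highest value among them was 1.22 RPKM, for Ccl12 in an iWAT sample. Ccl5, Cxcr5 and Xcr1 were tested and did not pass in a contrast as fitted. T cell markers summed to at most 0.788, 0.552 and 1.17 RPKM in a sample of iWAT, eWAT and BAT, B cell markers to at most 1.03, 1.37 and 0.9175 RPKM and lymph node stroma markers to at most 0.0837, 0.419 and 0.106 RPKM. Neutrophil markers reached 5.58, 12.1 and 1.66 RPKM and dendritic cell markers 3.32, 5.03 and 3.47 RPKM.

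The genes that act around the chemokines were examined as lists, whose counts are to be read against the 67.6% of all rows that differed between iWAT and BAT (34% higher and 33.6% lower in iWAT), the 70.3% between eWAT and BAT (35.6% higher) and the 25.6% between eWAT and iWAT (12.3% higher and 13.4% lower). Of 16 immediate-early and heat shock genes, which are switched on within minutes of stress or handling, all 16 were higher than BAT in iWAT and in eWAT. Their median log2 difference was 5.38 in iWAT, and Fosb (9.58, SE 0.67), Socs3 (8.45, SE 0.38), Fos (8.38, SE 0.60) and Egr2 (6.77, SE 0.84) led. The summed RPKM of this list was 3620 to 5000 in iWAT, 2992 to 3830 in eWAT and 58.65 to 294 in BAT. It was thus higher in digested white adipocytes than in frozen BAT, as were Cxcl1, Cxcl2, Ccl2, Ccl7 and Cxcl10. Within depots the Pearson correlation of these genes with the list differed. It was 0.25 (Cxcl10) to 0.55 (Ccl7) in iWAT and -0.62 (Ccl2) to -0.06 (Cxcl2) in eWAT. In BAT it was -0.08 (Cxcl10) to 0.79 (Cxcl1). The part of the list in the levels of these genes was not tested. Of 17 NF-kappaB pathway genes 14 were higher in iWAT than in BAT and none lower, led by the inhibitors and feedback genes Tnfaip3 (6.70, SE 0.40), Nfkbiz (5.27, SE 0.30) and Nfkbia (3.45, SE 0.25) and by the subunit Rel (3.39, SE 0.35). In eWAT over BAT 13 of 17 were higher. Of the upstream cytokines 5 of 6 tested were higher in iWAT than in BAT, among them Il6 (10.47, SE 0.81), Tnf (5.58, SE 0.61), Il1b (3.74, SE 0.47) and the macrophage growth factor Csf1 (3.06, SE 0.30), and 6 of 7 tested were higher in eWAT than in BAT.

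Of 12 interferon response genes 11 were higher in iWAT than in BAT and 6 in eWAT than in BAT, led in iWAT by Irf1 (4.75, SE 0.30), Irf8 (3.71, SE 0.52), Ifit1 (3.03, SE 0.48) and Ifit3 (2.82, SE 0.31). In eWAT over iWAT 8 of 12 were lower and none was higher, the same direction as for Cxcl9 and Cxcl10. Among 18 genes of signalling downstream of chemokine receptors, 7 were higher and 3 lower in iWAT than in BAT, which is 55.6% beside 67.6% of all rows, with Rgs1 (3.798, SE 0.58) and the Gi subunit Gnai2 (1.162, SE 0.13) higher and Rgs2 (-2.48, SE 0.49) and Dock8 (-1.29, SE 0.18) lower. In eWAT over iWAT 10 of these 18 were higher and none lower, among them the leukocyte genes Dock2, Rac2, Vav1 and Pik3cg. Of 9 genes that process or present chemokines, 5 were higher and 1 was lower in iWAT than in BAT, which is 66.7% and so near the background of 67.6%. The heparan sulphate carriers Sdc4 (2.08, SE 0.42) and Hspg2 (1.30, SE 0.17) and the protease Mmp12 (1.79, SE 0.59) were higher, and Mmp2 (-1.91, SE 0.32) was lower. In eWAT over BAT 7 of the 9 were higher and 1 was lower.

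Related attractant systems that the naming rule leaves out also differed. Rarres2, which encodes chemerin, was higher in iWAT than in BAT by 3.31 (SE 0.14), and its receptor Cmklr1 by 4.67 (SE 0.18). Ccrl2, which binds chemerin without signalling, was higher by 1.71 (SE 0.25), while the atypical receptor Ccrl1 (now Ackr4) was lower by -0.74 (SE 0.18). Of the ligands Ppbp (-1.95, SE 0.46) and Mif (-0.55, SE 0.13) were lower in iWAT. Of the 8 receptors of this list, which includes Cxcr7, 6 were tested, and 2 were higher and 2 were lower than BAT in each white depot. This is 66.7% called in each, near the 67.6% of all rows in iWAT and the 70.3% of all symbols in eWAT.

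Within depots, some members rose and fell together from sample to sample. Of the members reported, the pairs with the highest Pearson correlation of log2(RPKM + 0.1), averaged over depots with 6 samples in each, were Cxcl2 with Cxcl3 (0.93 in iWAT and 0.96 in eWAT, undefined in BAT), Ccl6 with Ccl9 (0.95, 0.998 and 0.86) and Cxcl10 with Cxcl9 (0.97, 0.84 and 0.97). Each of these pairs lies close together on its chromosome. The samples of a pair share their library, and in eWAT sample 15 is the highest point of Cxcl2, Cxcl3, Ccl6 and Ccl9, so these are descriptions.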

How the data were processed

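RNA-seq was done on mature adipocytes of iWAT and eWAT and on whole BAT, with 6 samples per depot. Per the labels and the study's methods, libraries were prepared from RNA of RIN over 8 (NEBNext Ultra) and read on a HiSeq 2500 instrument, and the submitters' processing notes name cutadapt 1.16 and HISAT2 2.1.0 with the mm9 genome. The authors deposited a read count and an RPKM value (reads scaled by row length and library depth) for each row of each sample, as merged gene rows in iWAT and BAT (53445) and as transcript rows in eWAT (189660), and the counting tool's strand setting is not given in the sources used here.

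The members and lists used here were chosen with earlier results of these data known. For eWAT the transcript with the most reads stood for a gene. Counts were fitted with edgeR 4.0.16 (quasi-likelihood, TMM, library size set to the reads behind the RPKM values), with rows of at least 10 reads in at least 6 samples: iWAT against BAT over 12 samples and 19733 rows, the eWAT contrasts over all 18 samples and 18383 symbols. SE was taken from the log2 difference and its F value. Fold changes are 2 to the power of the log2 difference. The script was tested on simulated data. The study names no test for its RNA-seq. Alternatives were DESeq2 1.42.0, limma 3.58.1 on log2(RPKM + 0.1) and log2(RPKM + 1), other filters, row length as an offset, other eWAT rows, samples left out and a block for the number in the sample titles, which no source used here ties to an animal.

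Members with a mean of at least 1 RPKM in a depot were described singly (1 of them is counted but not reported here), other members past the threshold by their difference, and from each pathway list up to 4 genes with the largest difference among those called in iWAT over BAT. Within depots the samples correlated at 0.93 to 0.98 and no pair of libraries was identical. Nothing says that samples came from pooled animals or from single ones, so p-values measure the spread between these samples. Floors cover counting error only. Promoter letters came from RefSeq (GRCm38.p6). Protein sequences were not used here.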

Additional observations from a re-analysis of the deposited data

Results flagged for a closer look

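Of 51 values of a member in a depot with a mean of at least 1 RPKM, 14 had a sample far from the other 5 of its depot by Dixon's gap ratio. A rate of 1 in 20 would give about 2.55 if the values were independent and normally spread. Members read in the same library are not independent, so the 14 cannot be weighed against that number. In 11 of the 14 the sample was eWAT sample 15. Its RPKM was 233 for Cxcl2 (others 26.2 to 67.1), 275 for Ccl6 (22.6 to 63.7), 202 for Ccl9 (13.7 to 41.3), 42.9 for Cxcr4 (2.88 to 12.6) and 13.5 for Ccl8 (0.973 to 5.66). It was 3.845 for Cxcl14 (0.319 to 1.27), 11.95 for Cxcl16 (1.84 to 3.535) and 10.5 for Ccr2 (1.62 to 2.31). It was 8.29 for Ccr1 (1.18 to 3.04), 6.25 for Cxcl3 (0.7405 to 2.61) and 4.49 for Ccl22 (0.453 to 1.82). In the same sample the 11 macrophage markers summed to 3139 RPKM (others 205 to 713), the 8 adipocyte markers to 4125 RPKM (7966 to 10530), the upstream cytokines to 173 RPKM (29.0 to 65.75) and the epididymis markers to 74.8 RPKM. The part of these in the member values was not tested.

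In eWAT sample 8 Cxcr7 was at 18.25 RPKM (others 7.13 to 11.2) and Cxcl13 at 3.16 RPKM (0.254 to 0.905). In iWAT sample 7, where the macrophage markers summed to 241 RPKM and in no other iWAT sample to more than 143, Ccl8 was at 43.6 RPKM (0.986 to 14.7).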

How the results depend on the processing

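The number of members called stayed within 1.5 times its value as reported in all alternatives but those that follow. Using only the rows that were the same in all files left 9 members to test, of which 6 were called in eWAT over BAT (27 as reported) and 4 in eWAT over iWAT (18 as reported), since fewer genes entered. Of all 5733 such rows, 3888 were called in eWAT over BAT and 737 in eWAT over iWAT. A minimum of 0.5 RPKM gave 17 members in BAT (8 at a minimum of 1). With samples left out in turn the count was 23 to 27 for iWAT over BAT, 27 to 29 for eWAT over BAT and 17 to 22 for eWAT over iWAT, and the members with a mean of at least 1 RPKM were 16 to 18 in iWAT, 25 to 26 in eWAT and 8 to 9 in BAT. In the same fits the calls over all features were 12967 to 13940 for iWAT over BAT and 12580 to 13109 for eWAT over BAT. For eWAT over iWAT they were 3949 to 5227. Single samples also decided calls of members that did not pass as reported in eWAT over iWAT. Ccl3, Ccl4, Ccr1 and Ccl24 were called without iWAT sample 7 (2.14, 1.90, 2.37 and 1.62), Ccr7, Cxcl2 and Ccl11 without iWAT sample 11 (1.43, 1.75 and 0.66), and Cx3cl1 and Cxcl12 without iWAT sample 14 (1.28 and 0.87). Cxcl2 was also called without eWAT sample 11 or 14, Ccl11 without eWAT sample 7 or 14, Ccl24 without eWAT sample 14 and Xcr1 without eWAT sample 11 or iWAT sample 13. For eWAT over BAT, Ccl5 was called without BAT sample 13 (2.27) and Cxcl13 without BAT sample 7 or eWAT sample 13, 14 or 15. In iWAT over BAT Ccl11 was called without iWAT sample 15 (0.39), Cxcr5 without iWAT sample 7 (0.76) and Cxcl11 without BAT sample 8 or iWAT sample 13 or 14. Leaving out the eWAT samples 14 and 15 together, chosen after seeing the data, gave 29 and 18 members in eWAT over BAT and eWAT over iWAT. Of all 19117 symbols tested there, 12873 and 3619 were called.

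With a replicate block for the number in the sample titles, 23, 26 and 14 members were called in iWAT over BAT, eWAT over BAT and eWAT over iWAT (23, 27 and 18 without it). Calls over all features also fell with the block. They were 11711 of 19733 rows in iWAT over BAT (13337 without it) and 11400 of 18383 symbols in eWAT over BAT (12916 without it). In eWAT over iWAT they were 3154 of 18383 symbols (4714 without it). Among the calls lost in eWAT over iWAT were Ccl9 (2.23, adjusted p = 0.0532, edgeR), Cxcr4 (1.85, adjusted p = 0.0611, edgeR), Ccr10 and Cxcl5, while Ccl24 came to pass. In eWAT over BAT they included Ccr2 (1.25, adjusted p = 0.0839, edgeR) and Ccl11, while Cx3cr1 and Cxcl13 came to pass. In iWAT over BAT Ccr2 and Ccr9 were lost, and Cxcl11 and Cxcl12 came to pass. Neither the labels nor the methods say that the number is an animal. Deviations from the depot means of same-numbered samples correlated at 0.035 on average over 4 pairs of iWAT and BAT, -0.031 over 4 pairs of eWAT and BAT and -0.091 over 5 pairs of eWAT and iWAT, and in 2 of 26 cases a sample correlated best with the sample of its own number in another depot. So few pairs, from different tissues, cannot show whether a number stands for an animal, so a pairing remains possible. The block is given here alone.

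In eWAT over iWAT 2 members that were called changed sign. Ccl25 was -1.28 as reported but 1.18 and 0.40 with limma at pseudocounts of 0.1 and 1, and 1.52 with row length as an offset. Ccl27a was -0.72 as reported but 0.15 and 0.063 with limma, and 0.18 with the offset. These scales also moved the median of all symbols in eWAT over iWAT, to 0.34 and 0.20 with limma and 0.38 with the offset, and in eWAT over BAT to 0.71, 0.42 and 0.48. In eWAT over BAT Ccl25 (-3.14, adjusted p = 2.07e-11, edgeR) was not called with the offset (-0.33, adjusted p = 0.0833, edgeR), and Ccr9 (-0.16, adjusted p = 0.344, edgeR) was called higher (2.41, adjusted p = 7.64e-11, edgeR). Over all members and alternatives, 757 of the values in eWAT over BAT kept their direction and side of the threshold, 21 came to pass it and 7 no longer did in the same direction, and 16 changed sign. In eWAT over iWAT these numbers were 720, 56, 11 and 14, and in iWAT over BAT 519, 11, 22 and 14. All changes of sign but the 6 of Ccl25 and Ccl27a were in members not called as reported. Among them Cxcl14 in eWAT over iWAT went from 0.62 to -0.98 with the eWAT transcript of the highest RPKM and -0.36 without eWAT sample 15, Cxcl12 in eWAT over BAT from -0.14 to 0.60 with limma at a pseudocount of 0.1, and Ccl5 in iWAT over BAT from -0.59 to 0.74 without BAT sample 13. For members with few reads in BAT, such as Cxcl1 with 4 to 28 per library, depth limits the precision of the fold.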
